A study of Mus musculus with 12 samples.

Results

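The genes described here are 35 genes of mitosis and the spindle: the kinases and cyclins that start mitosis, the kinetochore and checkpoint genes, the motors and assembly factors of the spindle, and the genes of chromosome separation and cytokinesis. They were chosen as a list of symbols and read from the deposited table of raw counts. All 35 symbols were among the 25897 in the table, and 34 of them were among the 14185 genes that passed the filter on low counts. Prc1, a microtubule bundler of the central spindle, had 0 counts in all 12 libraries. Whether the authors' counting covered Prc1 is not known, so this 0 is not read as its level. If it was counted, 3 counts as the limit that a count of 0 allows would leave up to 0.0954 to 0.124 CPM per library (the count scaled to library size), for counting error only.

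The cells were mouse embryonic stem cells of the E14tg2a line (129SV background) with a cRAF-ERT2 construct, a RAF kinase joined to an oestrogen receptor domain that answers to 4OHT and through which ERK can be switched on. Each of 3 clones (a, b and c) was measured untreated and in 250 nM 4OHT for 1, 2 or 4 h, in 4 groups of 3 libraries. Values per library below are in the order of clones a, b and c. All groups, untreated cells included, carried the construct, had been grown with serum, LIF and 2 µM Chir99021, were changed 24 h before treatment to the FGF receptor inhibitor PD173074 at 250 nM in serum and LIF, and received 5 mM ethynyl uridine 15 min before harvest. The treatment protocol names 0 and 2 h, while the titles and the design text give all 4 times. No group given only the solvent of 4OHT was analysed here, and the 3 comparisons with untreated cells share the same 3 untreated libraries. The replicates were different clones, and nothing in the labels says whether clones were grown or harvested together.

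In a dividing cell, CDK1 with cyclin A or B starts mitosis after CDC25 phosphatases remove its inhibitory phosphates, and Polo and Aurora kinases drive spindle assembly. The spindle checkpoint holds the anaphase promoting complex and its partner CDC20 until every chromosome is attached, and the complex then marks cyclin B and other proteins for destruction. Most of these genes are transcribed in waves that peak in G2 and mitosis, under the DREAM and MuvB complexes, B-MYB, FOXM1 and NF-Y, which act at a promoter element named the cell cycle genes homology region (CHR) and at CCAAT boxes. Embryonic stem cells divide fast, so these genes are high in them, and in an unsynchronised culture the level of such a gene depends both on how many cells are in G2 or mitosis and on the RNA per cell, which bulk libraries cannot tell apart.

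Promoter sequences are shown for the members that passed the test against untreated cells at 2 h or 4 h and had a window in the RefSeq table of GRCm38.p6, because the results below turn on these genes. Each stretch is printed 5′ to 3′ on the strand of the gene, with capitals for the CHR core TTTGAA and the CCAAT box on either strand (TTCAAA and ATTGG on the other). The promoter of Aurka was followed by a 30-base stretch after its start because its CHR core lay there, and the same was done for Plk1.
Aurka, chr2:172370571-172370660, minus strand: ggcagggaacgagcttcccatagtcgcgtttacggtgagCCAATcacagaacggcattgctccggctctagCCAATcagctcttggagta
Aurka, chr2:172370521-172370550, minus strand: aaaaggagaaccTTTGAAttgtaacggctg
Plk1, chr7:122159345-122159434, plus strand: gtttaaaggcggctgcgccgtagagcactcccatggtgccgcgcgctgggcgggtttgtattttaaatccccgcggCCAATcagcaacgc
Plk1, chr7:122159455-122159484, plus strand: cagcgccgcgTTTGAAttcggggaggagcg
Nek2, chr1:191821383-191821502, plus strand: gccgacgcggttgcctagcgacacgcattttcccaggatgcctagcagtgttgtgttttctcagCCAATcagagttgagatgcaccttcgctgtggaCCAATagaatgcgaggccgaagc
Ube2c, chr2:164769839-164769958, plus strand: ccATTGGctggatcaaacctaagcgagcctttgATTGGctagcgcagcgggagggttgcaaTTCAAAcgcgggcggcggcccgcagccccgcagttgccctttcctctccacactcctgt
Racgap1, chr15:99651627-99651746, minus strand: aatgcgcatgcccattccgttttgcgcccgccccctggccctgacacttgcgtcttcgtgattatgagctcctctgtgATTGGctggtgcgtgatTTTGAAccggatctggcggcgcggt
Ttk, chr9:83834599-83834718, plus strand: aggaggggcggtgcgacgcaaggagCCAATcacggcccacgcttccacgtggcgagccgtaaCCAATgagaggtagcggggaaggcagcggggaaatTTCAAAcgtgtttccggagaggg
Cdc25b, chr2:131186858-131186977, plus strand: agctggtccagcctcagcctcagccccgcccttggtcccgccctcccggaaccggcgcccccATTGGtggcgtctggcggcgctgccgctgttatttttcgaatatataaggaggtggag

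Aurka, Plk1, Ube2c, Racgap1 and Ttk held both elements, while the windows of Nek2 and Cdc25b held the CCAAT box and no CHR core. Genes higher at 2 h (Aurka, Plk1, Ube2c, Nek2) and genes lower at 4 h (Racgap1, Ttk, Cdc25b) were found on both sides of that division. Windows of 300 bases, from 250 before to 50 after the start, were at hand for 29 of the 35 members, and the members without one were Ccna2, Dlgap5, Kif20a, Aurkb, Cdc25c and Tpx2. The CHR core was in 21 of 29 members (72.4%), against 14.1% of 10833 other tested genes and 20.2% of all 27025 symbols of the table (17.9% of its 32851 windows). The CCAAT box was in 22 of 29 members (75.9%), against 42.8% of other tested genes and 41.1% of all symbols (37.4% of windows). Both were in 17 of 29 members (58.6%), against 6.94% of other tested genes and 8.97% of all symbols. In the 100 bases before the start alone, the CHR core was in 7 members (24.1% against 3.86% of other tested genes), since in many members it lay just after the annotated start. These are matches of letters in a window, with no test and no reading of what binds there.

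**Figure D1:**
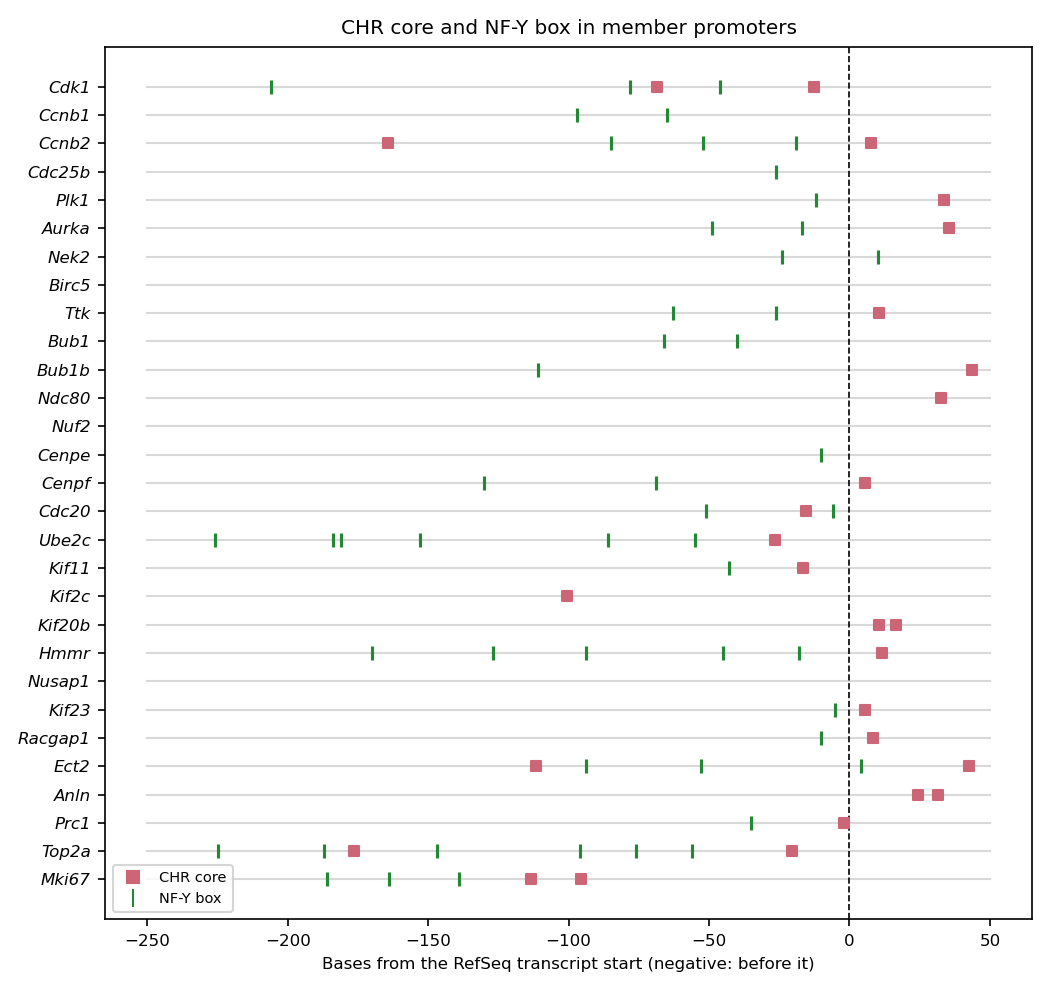
Positions of the CHR core (squares) and of the CCAAT box, which NF-Y binds (green bars), on either strand in the promoter windows of 29 members. The horizontal axis gives bases from the RefSeq transcript start, and for Ect2 and Prc1, which have 2 windows, the first in the table is drawn. The CHR core lies within about 50 bases of the start in most of the 21 members that hold it, and most CCAAT boxes lie before the start.

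The 12 libraries held 24213641 to 31435301 counts each, and TMM factors of 0.938 to 1.075. All 8 embryonic stem cell markers passed the filter and their summed level was 4287 to 5496 CPM. The sum hides opposite changes, since at 4 h 2 of the 8 were called higher and 2 lower (25% each). Nanog had 655 to 725 CPM untreated and 243 to 315 CPM at 4 h, and Utf1 15.1 to 31.8 and 62.6 to 77.3 CPM. Of 8 markers of feeder fibroblasts 3 passed the filter, with a summed level of all 8 of 6.73 to 7.72 CPM in untreated libraries, 6.74 to 8.13 at 1 h, 7.2 to 10.1 at 2 h and 13.98 to 28.4 CPM at 4 h. Of the 3 that passed the filter, 2 rose at 4 h and 1 fell. Thy1 (2.90 to 3.74 CPM untreated, 10.9 to 25.2 CPM at 4 h) and Col1a1 (0.159 to 0.45 and 0.499 to 1.07 CPM) rose, by 2.32 and 1.28 on the log2 scale, and Pdgfrb (3.22 to 3.46 and 0.95 to 2.38 CPM) fell by 0.96. Postn, Lum and Dcn stayed at or below 0.119 CPM in every library. The part of these markers in the results was not tested. Of 5 known ERK response genes (Egr1, Fos, Dusp6, Spry4 and Etv4) 4 were higher at 1 h and all 5 at 2 h and 4 h. Their mean log2 change at 2 h was 2.85 in clone a, 3.53 in clone b and 3.41 in clone c.

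In untreated cells the members spanned a wide range of levels per length. Per kilobase of exon, Top2a was highest at 220 ± 19.1 CPM per kb (SD, n = 3), followed by Cdc20 at 161 ± 62.4, Bub1b at 122 ± 7.42 and Ccnb2 at 112 ± 9.06 CPM per kb. Bub1b and Ccnb2 lay within the sum of their SDs, and the spread of Cdc20 reached over both. The lowest were the phosphatases Cdc25b at 6.28 ± 0.262 and Cdc25c at 7.26 ± 0.221 CPM per kb and the kinetochore gene Nuf2 at 10.9 ± 1.02 CPM per kb. Summed over all members, the level was 9862 ± 731 CPM before 4OHT and 10190 ± 1008, 11270 ± 1266 and 10450 ± 1412 CPM after 1, 2 and 4 h, with groups that overlapped.

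At 1 h no member passed the test (edgeR quasi-likelihood, adjusted p under 0.05). At an unadjusted p under 0.05, 3 members were higher (Aurka, Aurkb, Plk1) and 0 lower, against 1073 and 557 of all 14185 genes. DESeq2 and limma-voom called 0 as well. Over all tested genes edgeR called 0.0775% higher and 0% lower at 1 h. DESeq2 called 0.719% of them higher and 0.219% lower, and limma-voom 0.0423% and 0%. With clone as a block 5 members were higher (14.7%: Aurka, Plk1, Aurkb, Cdc20 and Ube2c) and 0 lower, against 5.41% and 1.58% of all genes. The median log2 change of the 34 members was 0.01, against −0.02 over all genes. By clone it was −0.07 in clone a, 0.05 in clone b and 0.11 in clone c, with 13, 22 and 29 members above 0.

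At 2 h 6 members rose (17.6%: Aurka, Plk1, Ube2c, Aurkb, Nek2 and Kif20a) and none fell, against 9.56% and 6.64% of all genes. At an unadjusted p under 0.05, 10 members were higher and 1, Cdc25b, was lower, against 2576 and 2323 of all 14185 genes. DESeq2 called 7 members higher (20.6%) and 0 lower, against 13.5% and 9.12% of all genes. The median log2 change of the members was 0.17, against −0.02 over all genes, and 29 of 34 changes (85.3%) were above 0, against 47.8% of all genes. In the fit with clone as a block 16 members rose (47.1%) and 1, Cdc25b, fell, against 20.6% and 20% of all genes. The 10 added by the block were Cdk1, Ccnb1, Cdc20, Cenpe, Hmmr, Kif2c, Kif20b, Kif23, Nusap1 and Tpx2. Groups did not overlap in 10 members above untreated cells and 1 below (19.1% and 18.2% of all genes).

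At 4 h Plk1 was the 1 member still past the threshold above untreated cells (2.94%), and 4 members fell (11.8%: Cdc25b, Cdc25c, Racgap1 and Ttk). Over all genes 18% rose and 15.1% fell, so in this fit both shares of the members were below the background, which for the lower calls turned under other scalings (below). The blocked fit called 8 members higher (23.5%) and 9 lower (26.5%), against 26.2% and 25.7% of all genes. The median log2 change was 0.03, against −0.02 over all genes, and 19 of 34 changes were above 0. With upper quartile scaling the median was −0.05 and with total counts −0.09. The clones differed in sign, with a median of −0.11 in clone a, 0.10 in clone b and 0.07 in clone c. In these clones 8, 22 and 23 of 34 members were above 0.

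Between 1 h and 2 h no member passed the test in edgeR, DESeq2 or limma-voom. In edgeR 0.0564% of all genes rose and 0.00705% fell. DESeq2 called 2.73% of all genes higher and 1.33% lower, and limma-voom called 0 of them either way. At an unadjusted p under 0.05 in edgeR, 2 members were higher (Kif20a, Kif20b) and 1 lower (Cdc25b), against 1295 and 996 of all 14185 genes. The blocked fit gave 6 that rose (17.6%: Cdc20, Kif20a, Kif20b, Nusap1, Tpx2 and Ube2c) and 0 that fell, against 7.13% and 5.46% of all genes. In this fit 17 members were higher and 1 lower at an unadjusted p under 0.05, against 2325 and 2157 of all genes. The change was above 0 in 31 of 34 members (91.2%, against 47.9% of all genes), with a median of 0.13.

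From 2 h to 4 h most members were lower. Nek2 and Aurka fell (5.88%, against 1.41% of all genes) and 0 rose, where 3.27% of all genes rose. At an unadjusted p under 0.05, 10 members were lower and 0 higher, against 1280 and 1661 of all 14185 genes. Neither DESeq2 nor limma-voom called a member higher, where 5.91% and 2.95% of all genes were. With clone as a block 14 fell (41.2%, against 9.98% of all genes) and 1, Cdc20, rose (2.94%, against 12%). The 14 were Aurka, Nek2, Birc5, Ccnb1, Ccnb2, Cdc25b, Cdc25c, Ect2, Kif20a, Kif2c, Ndc80, Nusap1, Racgap1 and Ttk. The log2 change was below 0 in 29 of 34 members, with a median of −0.15 against −0.0041 over all genes. Within clones the median was −0.14 in clone a, −0.14 in clone b and −0.18 in clone c, with 32, 27 and 31 of 34 members below 0.

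The scaling bears on these counts. The median change of all genes at 2 h was −0.02 with TMM, −0.115 with upper quartile scaling and −0.143 with total counts, and the split of all genes called higher and lower was 1356 to 942, 828 to 1345 and 688 to 1517. Relative to that median the members' median at 2 h was 0.195 higher with TMM and 0.194 higher with both others. The members called higher at 2 h became 2 and 1 under these scalings, which is 5.88% and 2.94%, against 5.84% and 4.85% of all genes. Aurka was called under both and Aurkb with upper quartile scaling only, while Plk1, Ube2c, Nek2 and Kif20a were called under neither. The members called lower at 4 h became 8 and 9 in place of 4, or 23.5% and 26.5%, against 19% and 20.5% of all genes. The members' median changed sign with the scaling at 1 h (−0.04 with upper quartile scaling, −0.08 with total counts) and at 4 h, while relative to the median of all genes it stayed 0.03 to 0.04 higher under each scaling. No called member changed its sign, while 10 members at 2 h, 15 at 1 h and 13 at 4 h that were not called did under another scaling. At 2 h these were Racgap1 with DESeq2's size factors, and Ccnb2, Bub1, Bub1b, Birc5, Dlgap5, Ndc80, Nuf2 and Mki67 with upper quartile scaling and total counts, joined by Ccna2 with total counts.

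**Figure D2:**
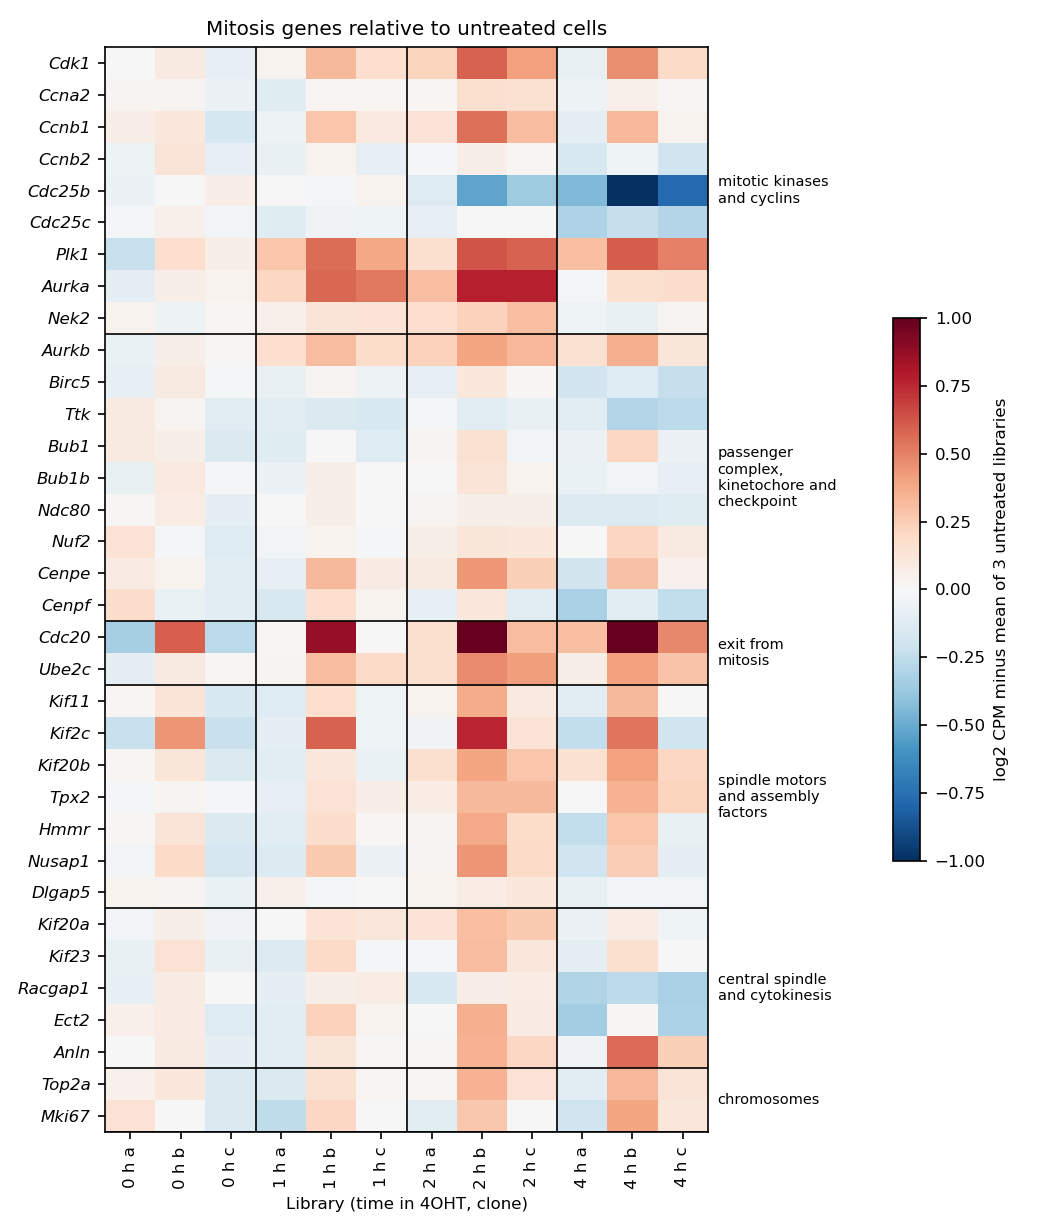
Log2 CPM of 34 members in each of the 12 libraries, minus the gene's mean over the 3 untreated libraries, with red for higher and blue for lower and colours ending at 1 and −1. Rows follow the roles named at the right, and columns are ordered by time and clone. Aurka and Plk1 are red at 1 h and 2 h in all clones, Cdc25b turns blue at 2 h and 4 h, and Cdc20 and Kif2c are red in clone b already in untreated cells.

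Among the 9 mitotic kinases, cyclins and phosphatases, 3 rose at 2 h, and 1 was higher and 2 lower at 4 h. Aurka, the kinase of centrosome maturation and spindle poles (chr2:172356190-172370535, GENCODE M21 on GRCm38), had 173, 191 and 188.5 CPM before 4OHT, 212, 274 and 266 at 1 h, 227, 316 and 316 at 2 h, and 183, 205.5 and 208 CPM at 4 h. All 1 h and 2 h libraries lay above all untreated ones, and the 4 h libraries came back to overlap them. The log2 change was 0.44 ± 0.13 (SE) at 1 h (adjusted p = 0.282), 0.63 ± 0.13 at 2 h (1.55-fold, adjusted p = 0.0137) and 0.11 ± 0.13 at 4 h (adjusted p = 0.553). From 2 h to 4 h Aurka fell by 0.53 ± 0.13 on the log2 scale (adjusted p = 0.0444), in all 3 clones, a call that limma-voom did not make.

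Plk1, the Polo kinase that promotes mitotic entry (chr7:122159439-122169873), had 64.7, 84.6 and 78.4 CPM before 4OHT, 91.5, 111 and 98.6 at 1 h, 84.2, 117 and 113 at 2 h, and 93.1, 115 and 107 CPM at 4 h. The 1 h and 4 h libraries lay above all untreated ones, and at 2 h clone a fell within their range. The log2 change was 0.40 ± 0.14 at 1 h (adjusted p = 0.327), 0.47 ± 0.14 at 2 h (adjusted p = 0.0444) and 0.47 ± 0.14 at 4 h (adjusted p = 0.0252), and it differed between 4 h and 2 h by 0.0030 ± 0.14. At 4 h Plk1 thus stood at its 2 h level and Aurka did not, and the difference between their courses was not tested. Exons of Plk1 overlap a gene model on the other strand over 7.09% of their length.

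Nek2, a kinase of centrosome separation (chr1:191821444-191833050), had 121.5, 114 and 120 CPM before 4OHT, 123, 130 and 130 at 1 h, 133, 139 and 146 at 2 h, and 115, 113 and 120.5 CPM at 4 h. The 1 h and 2 h libraries lay above all untreated ones, and the 4 h libraries overlapped them. Nek2 rose by 0.23 ± 0.06 on the log2 scale at 2 h (adjusted p = 0.0263) and fell by 0.26 ± 0.06 from 2 h to 4 h (adjusted p = 0.0307). Its exons overlap an antisense gene over 6.6% of their length.

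Cdk1, the kinase that drives entry into mitosis, had 312, 332 and 295 CPM before 4OHT, 320, 392 and 351 at 1 h, 364, 472 and 416 at 2 h, and 297, 430 and 356 CPM at 4 h. At 2 h all libraries were above all untreated ones, with a log2 change of 0.42 ± 0.13 that missed the threshold (adjusted p = 0.054). DESeq2 and the fit with clone as a block both called it. Ccnb1, the cyclin B1 partner of CDK1, had 237, 245 and 201 CPM before 4OHT, 219, 274.5 and 243 at 1 h, 250, 333 and 282 at 2 h, and 213.5, 286 and 232 CPM at 4 h. Its groups did not overlap at 2 h, and the log2 change of 0.34 ± 0.14 passed with clone as a block but not without (adjusted p = 0.103). The other cyclins changed less at 2 h, Ccna2 (cyclin A2) by 0.11 ± 0.06 and Ccnb2 (cyclin B2) by 0.02 ± 0.07 on the log2 scale, and neither passed.

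Cdc25b, a phosphatase that activates CDK1 at mitotic entry (chr2:131186949-131198497), went the other way. It had 22.5, 23.3 and 24.5 CPM before 4OHT, 23.5, 23.3 and 23.97 at 1 h, 21.4, 16.2 and 18.2 at 2 h, and 17.2, 10.96 and 13.6 CPM at 4 h. All 2 h and 4 h libraries lay below all untreated ones. The log2 change was −0.33 ± 0.15 at 2 h (adjusted p = 0.14, past the threshold with clone as a block), and at 4 h Cdc25b fell by 0.75 ± 0.15 (0.594 of the untreated level, adjusted p = 0.00375). At 4 h the log2 change was −0.39 in clone a, −1.08 in clone b and −0.84 in clone c. Exons of Cdc25b overlap Spef1 on the other strand over 2.47% of their length.

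Cdc25c, a phosphatase of the same family, had 35.2, 36.9 and 34.98 CPM before 4OHT, 32.8, 34.8 and 34.6 at 1 h, 33.7, 35.9 and 35.7 at 2 h, and 28.8, 30.3 and 29.1 CPM at 4 h. The 4 h libraries lay below every other library of this gene. Cdc25c fell by 0.28 ± 0.07 on the log2 scale at 4 h (adjusted p = 0.00998), and its change at 2 h was −0.02 ± 0.07. Its exons overlap Gm3550 on the other strand over 12.7% of their length.

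**Figure D3:**
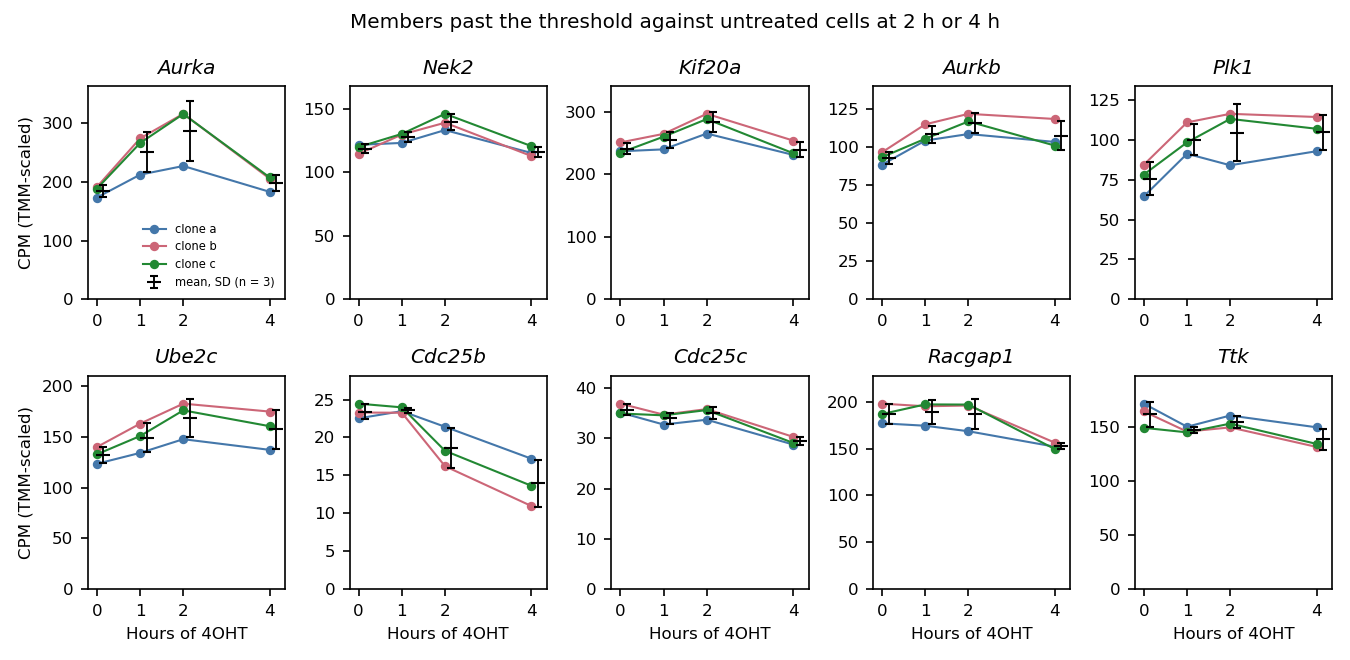
CPM of the 10 members past the threshold against untreated cells at 2 h or 4 h, by hours of 4OHT. Coloured points joined by lines are clones a, b and c, black bars give mean and SD (n = 3), and each vertical axis starts at 0. Aurka, Nek2 and Kif20a peak at 2 h and are back near their untreated levels at 4 h, Plk1 stays up, and Cdc25b, Cdc25c, Racgap1 and Ttk are lowest at 4 h.

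Of the 9 genes of the chromosomal passenger complex, the kinetochore and the checkpoint, Aurkb rose at 2 h and Ttk fell at 4 h. Aurkb, the passenger complex kinase that corrects faulty attachments (chr11:69045647-69051664), had 88.6, 96.7 and 93.5 CPM before 4OHT, 104, 115 and 106 at 1 h, 109, 122 and 117 at 2 h, and 103.5, 119 and 101 CPM at 4 h. Every treated library lay above every untreated one. The log2 change was 0.22 ± 0.08 at 1 h (adjusted p = 0.327), 0.32 ± 0.08 at 2 h (1.25-fold, adjusted p = 0.0241) and 0.21 ± 0.08 at 4 h (adjusted p = 0.0563, past the threshold with clone as a block).

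Ttk, the checkpoint kinase MPS1 (chr9:83834689-83872389), had 172, 165 and 149 CPM before 4OHT, 150, 146 and 145 at 1 h, 161, 150 and 153 at 2 h, and 150, 132 and 134.5 CPM at 4 h. Its 4 h and untreated libraries overlapped by a single clone, clone a at 4 h and clone c untreated. Ttk fell by 0.22 ± 0.07 on the log2 scale at 4 h (adjusted p = 0.0307). The passenger subunit Birc5 (survivin) and the kinetochore gene Ndc80 had 4 h libraries below all untreated ones, with log2 changes of −0.18 ± 0.07 (adjusted p = 0.0593) and −0.13 ± 0.06 (adjusted p = 0.0928), which passed with clone as a block. The checkpoint kinase Bub1, its relative Bub1b and the kinetochore gene Nuf2 lay between −0.06 and 0.10 on the log2 scale at 2 h and 4 h, and none passed in either fit. Cenpe, a kinetochore motor, had a log2 change of 0.26 ± 0.13 at 2 h (adjusted p = 0.197), and Cenpf, a large kinetochore protein, one of −0.23 ± 0.11 at 4 h (adjusted p = 0.117). Both passed with clone as a block.

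Both genes that work with the anaphase promoting complex were higher at all treated times in all clones. Ube2c, its ubiquitin-conjugating enzyme (chr2:164769898-164778822), had 123, 140 and 133 CPM before 4OHT, 134, 163 and 151 at 1 h, 148, 183 and 176 at 2 h, and 137, 175 and 160 CPM at 4 h. The 2 h libraries lay above all untreated ones, and clone a overlapped them at 1 h and 4 h. Ube2c rose by 0.35 ± 0.11 on the log2 scale at 2 h (adjusted p = 0.0491), and the change was 0.25 ± 0.11 at 4 h (adjusted p = 0.0967, past the threshold with clone as a block). Exons of Ube2c overlap Tnnc2 on the other strand over 22.8% of their length.

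Cdc20, the activator that the checkpoint holds back, had 229, 435 and 239 CPM before 4OHT, 290, 526 and 288 at 1 h, 322, 665 and 356 at 2 h, and 354, 747 and 401 CPM at 4 h. Each clone was higher at 4 h than at 2 h and at 2 h than at 1 h, but clone b was so much higher that groups overlapped at all times. The log2 change was 0.57 ± 0.38 at 2 h (adjusted p = 0.312) and 0.73 ± 0.38 at 4 h (adjusted p = 0.164). Within clones the 4 h change was 0.63 in clone a, 0.78 in clone b and 0.75 in clone c, and with clone as a block Cdc20 passed in all 5 comparisons.

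None of the 7 spindle motors and assembly factors passed in the main test. With clone as a block 5 of them rose at 2 h, and all 7 had log2 changes above 0, from 0.07 for Dlgap5, which binds spindle microtubules, to 0.30 for Kif2c, a microtubule depolymerase. Kif20b, a kinesin of late mitosis, had libraries above all untreated ones at 2 h (394 to 464 CPM) and 4 h (394 to 467 CPM) against 320 to 385.5 CPM untreated. Its log2 change was 0.27 ± 0.10 at 2 h (adjusted p = 0.0724) and 0.25 ± 0.10 at 4 h (adjusted p = 0.0633), and both passed with clone as a block. Tpx2, the activator of Aurora A, ran from 344.5 to 357 CPM untreated and from 369 to 439 CPM at 2 h, without overlap, with a log2 change of 0.25 ± 0.10 (adjusted p = 0.102). The motor Kif11 and the microtubule-binding genes Hmmr and Nusap1 had 2 h changes of 0.17 ± 0.13, 0.20 ± 0.14 and 0.22 ± 0.15 on the log2 scale.

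Of the 6 genes of the central spindle and cytokinesis, Kif20a rose at 2 h and Racgap1 fell at 4 h. Kif20a, a kinesin that carries the passenger complex to the midzone, had 237, 251 and 235 CPM before 4OHT, 240, 265 and 260 at 1 h, 265, 297 and 288 at 2 h, and 231, 254 and 234 CPM at 4 h. Its 2 h libraries lay above all untreated ones, and at 4 h the range was that of untreated cells. Kif20a rose by 0.24 ± 0.07 on the log2 scale at 2 h (adjusted p = 0.0373) and changed by −0.24 ± 0.07 from 2 h to 4 h (adjusted p = 0.0617, past the threshold with clone as a block). Its exons overlap Cdc23, a subunit of the anaphase promoting complex on the other strand, over 29.3% of their length.

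Racgap1, a subunit of centralspindlin (chr15:99620496-99651656), had 177, 198 and 187 CPM before 4OHT, 174.5, 195 and 197 at 1 h, 169, 196 and 197 at 2 h, and 152, 156 and 150 CPM at 4 h. All 4 h libraries lay below every other library, and the earlier times overlapped. Racgap1 fell by 0.30 ± 0.08 on the log2 scale at 4 h (adjusted p = 0.0133). Its centralspindlin partner Kif23 had a 4 h change of 0.02 ± 0.11 and a 2 h change of 0.14 ± 0.11. Ect2, the exchange factor that centralspindlin recruits, changed by −0.21 ± 0.13 at 4 h (adjusted p = 0.214), past the threshold with clone as a block. Anln (anillin), a scaffold of the contractile ring, had a log2 change of 0.28 ± 0.14 at 4 h (adjusted p = 0.14), and it also passed with clone as a block. By clone this change of Anln was −0.04 in clone a, 0.48 in clone b and 0.33 in clone c, so clone a did not rise.

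Neither gene of mitotic chromosomes passed in any comparison or with clone as a block. Top2a, the topoisomerase that separates sister DNA, had 2036, 2122 and 1791 CPM before 4OHT, 1789, 2193 and 2006 at 1 h, 2004, 2512 and 2190 at 2 h, and 1825, 2486 and 2166 CPM at 4 h. Mki67, the proliferation marker Ki-67 that coats mitotic chromosomes, had 356, 321 and 291 CPM before 4OHT, 269, 372 and 322 at 1 h, 298, 388 and 323 at 2 h, and 280, 423 and 348 CPM at 4 h. In both genes all groups overlapped, and clone b was highest at every treated time. The log2 change at 2 h was 0.17 ± 0.13 for Top2a and 0.06 ± 0.16 for Mki67.

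**Figure D4:**
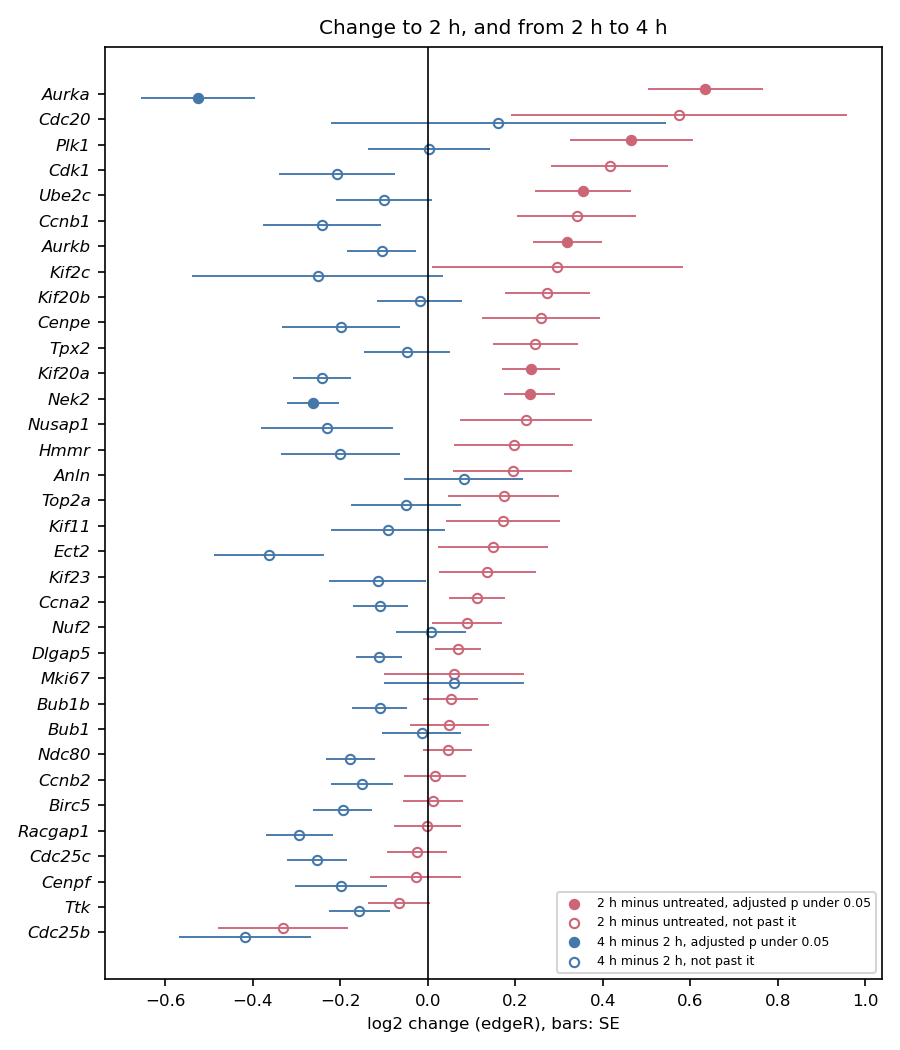
Log2 change (edgeR) of 34 members from untreated cells to 2 h (red) and from 2 h to 4 h (blue), with bars for the SE and filled points for an adjusted p under 0.05. Genes are ordered by the 2 h change, from Cdc25b at −0.33 to Aurka at 0.63. Both changes share the 2 h libraries, so their opposite signs are not independent.

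Calls of members, like those of all genes, were lost when single libraries were left out. None of the 6 calls at 2 h remained when clone b, or clone c, was left out at 2 h. Calls over all genes then went from 1356 higher and 942 lower to 274 and 105 without clone b and to 257 and 81 without clone c. The change of Aurka was 0.55 and 0.56 on the log2 scale in these fits, in place of 0.63, and that of Kif20a 0.19 and 0.22, in place of 0.24. Those of Aurkb, Plk1, Kif20a and Ube2c were also lost without any 1 of the untreated libraries, and that of Nek2 without untreated clone b or c. Plk1 and Ube2c lost theirs without clone c at 4 h or any clone at 1 h, and Kif20a without clone c at 4 h or clone b or c at 1 h. At 4 h Plk1 was lost without untreated clone a or without 4 h clone b or c, Ttk without untreated clone a or b or 4 h clone b or c, and Racgap1 without untreated clone b or 4 h clone c. The 4 h calls of Cdc25b and Cdc25c held without each single library, that of Cdc25c was lost without all libraries of clone b, and both without all those of clone c. From 2 h to 4 h Nek2 was lost without any treated library of clone b or c, and Aurka without each of 10 libraries, all but the 1 h and 2 h libraries of clone a.

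The clones differed in level and in size of change. All 4 libraries of clone b were above all 8 libraries of clones a and c for Cdc20 (435 to 747 against 229 to 401 CPM), Kif2c (337 to 421 against 209 to 272 CPM), Kif11 (497 to 586 against 407 to 486 CPM) and Kif23, which was true of 2.37% of all genes. Cdc20 and Kif2c are singled out here after their values were seen. Clone b was highest at all 4 times for 21 of 34 members, against 10.7% of all genes, and the median log2 difference of clone b from the other clones was 0.15 over the members and −0.0020 over all genes. In untreated cells alone it was 0.12 and 0.01. Since clone b is a single clone, these are descriptions with no test. The exceptions included Cdc25b, with a mean log2 difference of −0.20, and Ttk and Nek2, for which clone b was highest at no time.

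The 2 h change also varied by clone. The median log2 change of the members at 2 h was 0.01 in clone a, 0.24 in clone b and 0.27 in clone c, with 21, 28 and 33 of 34 members above 0. By clone, the log2 change was 0.39, 0.72 and 0.74 for Aurka and 0.38, 0.46 and 0.53 for Plk1. The mean change of the 5 ERK response genes given above was also lowest in clone a, and its part in the result was not tested.

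**Figure D5:**
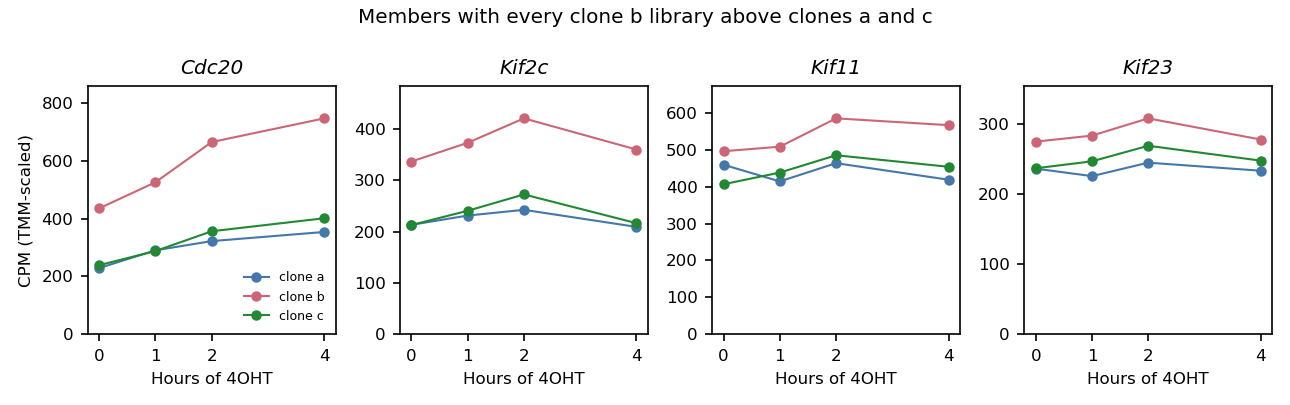
CPM of Cdc20, Kif2c, Kif11 and Kif23 by hours of 4OHT in clones a, b and c, with each vertical axis starting at 0. The line of clone b lies above both others at all 4 times for each gene, from 435 to 747 CPM for Cdc20 where clones a and c run from 229 to 401 CPM.

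Other genes of the same processes, from lists that hold no member, were counted beside the members in the same fit. Their shares are to be read against those of all genes given above. In edgeR these were 9.56% higher and 6.64% lower at 2 h, and 18% and 15.1% at 4 h. With clone as a block they were 20.6% and 20% at 2 h, and 26.2% and 25.7% at 4 h. At 2 h DESeq2 called 13.5% of all genes higher and 9.12% lower, and limma-voom 9.57% and 7.75%. Of 22 regulators of mitotic transcription 3 rose (13.6%) and 1 fell (4.55%) at 2 h, and 5 rose (22.7%) and 3 fell (13.6%) at 4 h, shares near the background. The blocked fit gave 7 and 3 at 2 h and 5 and 5 at 4 h. The repressor Rbl2 (p130) changed by −0.55 ± 0.12 (adjusted p = 0.0173) at 2 h, E2f2 by 0.63 ± 0.15 (adjusted p = 0.0207) and E2f4 by 0.44 ± 0.12 (adjusted p = 0.0371). At 4 h E2f1 changed by −0.68 ± 0.10 and E2f2 by 0.98 ± 0.15 (adjusted p = 0.000877 for both).

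Of 15 tested genes of the switch from G2 to mitosis 2 rose (13.3%) and 0 fell at 2 h, Cks1b (a CDK subunit) by 0.49 ± 0.07 and Cdc25a by 0.38 ± 0.09, with 1 lower at an unadjusted p under 0.05 in edgeR and 0 called lower in DESeq2 or limma-voom. Gtse1 did not pass (0.42 ± 0.15, adjusted p = 0.0724). At 4 h 2 rose (13.3%) and 4 fell (26.7%), with Cks1b at 0.58 ± 0.07 and the checkpoint kinase Chek1 at −0.43 ± 0.06. The blocked fit gave 7 higher (46.7%) and 2 lower (13.3%) at 2 h, and 3 (20%) and 6 (40%) at 4 h.

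Of 17 genes of the anaphase promoting complex and of proteins that act on or with it, none was called at 2 h in edgeR. At an unadjusted p under 0.05, 5 were higher and 1 lower, led by Anapc7 (0.24 ± 0.08, adjusted p = 0.0513), Anapc15 and Cdc26. DESeq2 called 4 of them higher and limma-voom 1, and both called 0 lower, while the fit with clone as a block called 6 higher (35.3%) and 3 lower (17.6%). At 4 h 2 rose and 2 fell (11.8% each), or 2 and 5 (29.4%) with the block, with the subunit Cdc26 at 0.53 ± 0.08 and the inhibitor Fbxo5 (EMI1) at −0.39 ± 0.08.

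Of 24 further kinetochore, checkpoint and passenger genes 2 rose at 2 h (8.33%), the centromeric histone Cenpa by 0.38 ± 0.10 and Incenp by 0.37 ± 0.11, while Cenpc1 (0.23 ± 0.07, adjusted p = 0.0506) did not pass. At 4 h 1 rose (4.17%) and 6 fell (25%), with Zwilch at −0.41 ± 0.08 and Ska2 at −0.45 ± 0.09. The blocked fit gave 6 higher (25%) and 5 lower (20.8%) at 2 h, and 5 (20.8%) and 10 (41.7%) at 4 h. Of 17 condensin, cohesin and separase genes none was called at 2 h in edgeR, with 2 higher (Ncapg2 and Espl1) and 0 lower at an unadjusted p under 0.05, 1 higher in DESeq2 and 0 in limma-voom, while the blocked fit called 5 higher (29.4%) and 0 lower. At 4 h 4 rose (23.5%) and 1 fell (5.88%), with Stag2 at 0.36 ± 0.10 and Sgo1 at −0.18 ± 0.06, and the blocked fit gave 6 (35.3%) and 2 (11.8%).

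Of 27 other spindle, centrosome and cytokinesis genes 2 rose at 2 h (7.41%), Arhgap11a by 0.44 ± 0.12 and Cep55 by 0.29 ± 0.08. At 4 h 1 rose (3.7%) and 6 fell (22.2%), with the kinesin Kif18a at −0.56 ± 0.09 and Ckap2l at −0.34 ± 0.07. The blocked fit gave 8 higher (29.6%) and 2 lower (7.41%) at 2 h, and 2 (7.41%) and 12 (44.4%) at 4 h. From 2 h to 4 h 3 fell (11.1%, against 1.41% of all genes) and 0 rose, with 0 higher at an unadjusted p under 0.05 in edgeR and 0 higher in DESeq2 or limma-voom. With the block 16 of the 27 fell (59.3%, against 9.98% of all genes), and the median log2 change of this list was −0.22.

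Of 32 genes of the G1 to S transition and replication 12 rose (37.5%) and 0 fell at 2 h, with 0 lower at an unadjusted p under 0.05 in edgeR and 0 lower in DESeq2 or limma-voom. Among them were the cyclins Ccne1 (0.26 ± 0.05) and Ccne2 (0.47 ± 0.10) and the flap nuclease Fen1 (0.28 ± 0.06). At 4 h 4 rose and 4 fell (12.5% each), with Ccne1 at 0.33 ± 0.05 and Pcna at 0.48 ± 0.09. The blocked fit gave 18 higher (56.2%) and 1 lower at 2 h, 12 (37.5%) and 9 (28.1%) at 4 h, and 12 lower (37.5%) from 2 h to 4 h. The median 2 h change of that list was 0.20, beside 0.17 for the members, and from 2 h to 4 h it was −0.14, beside −0.15.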

How the data were processed

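RNA from 12 libraries, 3 clones at 4 times, was analysed from the raw counts per gene that the authors deposited as 1 table. The sample titles carry the tag mRNA_TC. STAR, featureCounts, DESeq and mm10 are named in the submitters' processing notes; the sources used here do not give versions, annotation, strand or multimapping, so overlapping genes cannot be separated. Groups and clones come from the sample labels.

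Genes passed filterByExpr (minimum count 10, minimum total 15), counts were scaled by TMM, and edgeR's quasi-likelihood test (edgeR 4.0.16, limma 3.58.1, R 4.3.3) was fitted to all 12 libraries with 1 term per group and 8 residual degrees of freedom. P-values are 2-sided, with Benjamini-Hochberg adjustment over 14185 genes at 0.05. The SE is the log2 change divided by the root of F and is approximate. CPM per kb uses exon lengths of GENCODE M21. The test was checked on simulated counts with planted changes larger than those called for the members and with no clone effect. This check therefore does not cover changes of the members' size.

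Libraries of 1 clone deviated together (18 of 18 same-clone pairs, r 0.184 to 0.684), and the clone letter was fitted as a block (6 residual degrees of freedom). Between clones r was −0.568 to −0.024. Deviations were taken from the mean of each group, so with same-clone r above 0 these must average below 0 and add no evidence. Other alternatives were scaling, no filter, DESeq2 1.42.0, limma-voom, only the groups compared, and leaving out libraries. Libraries differed by more than sampling noise. The main fit takes the 12 libraries as independent, so its P-values set a change against the spread of levels between these clones. They do not measure how far the change itself varied between clones. Those of the blocked fit measure the spread left within these clones once each clone's own level is taken out.

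The members and gene lists were chosen with earlier results of these data known. Values per library are given for members past 0.05 against untreated cells and for Cdk1, Ccnb1, Aurkb, Mki67, Top2a and Cdc25c, and for Cdc20, which was added after its values were seen. From each other list up to 3 genes with the smallest p at 2 h and up to 2 at 4 h are named.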

Additional observations from a re-analysis of the deposited data

How the results depend on the processing

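With clone as a replicate block the members called higher and lower were 5 and 0 at 1 h, 16 and 1 at 2 h, 8 and 9 at 4 h, 6 and 0 from 1 h to 2 h, and 1 and 14 from 2 h to 4 h. Upper quartile scaling gave 2 higher at 2 h, 8 lower at 4 h and 4 lower from 2 h to 4 h, and total counts gave 1, 9 and 1. From 2 h to 4 h these were 11.8% and 2.94% of the members, against 1.23% and 0.839% of all genes. The median change from 1 h to 2 h was 0.0897 and 0.108 under these scalings, and at 1 h it was −0.083 with total counts. Fits of only the groups compared gave 3 members higher at 2 h (8.82%, against 5.93% of all genes), 2 lower at 4 h (5.88%, against 9.94%) and 0 lower from 2 h to 4 h, where 0 of all 13714 genes were called either way. DESeq2 gave 2 higher at 4 h (5.88%, against 19.7% of all genes) and 6 lower from 2 h to 4 h (17.6%, against 3.92%). From 2 h to 4 h limma-voom gave 1 lower (2.94%, against 1.4%). Leaving out libraries gave 0 to 1 higher at 1 h, 0 to 9 higher and 0 to 1 lower at 2 h, 0 to 5 higher and 0 to 5 lower at 4 h, and 0 to 3 lower from 2 h to 4 h. Of all genes 0% to 0.182% were then higher at 1 h, and 0.007% to 12.6% higher and 0% to 10.1% lower at 2 h. At 4 h 4.53% to 20.3% of all genes were higher and 1.9% to 18.3% lower, and from 2 h to 4 h 0% to 3.95% were lower. The members' median then ran from −0.05 to 0.09 at 1 h, 0.07 to 0.25 at 2 h, −0.05 to 0.09 at 4 h, 0.058 to 0.191 from 1 h to 2 h and −0.207 to −0.0947 from 2 h to 4 h. In the 100 bases before the start the CHR core was in 7 members and both elements in 6. Some alternatives also used fewer libraries or bases, and the cause of these differences was not tested. No called member changed sign. With 3 clones per group, the smallest log2 change called against untreated cells was 0.22 in size, and Prc1 could not be measured.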
